A study of Homo sapiens with 14 samples.

Results

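MDA-MB-231 is a line of triple-negative breast cancer cells, which grow without estrogen receptor, progesterone receptor or amplified HER2. RNA was sequenced from MDA-MB-231 cells given a control siRNA (1 library) and from cells given an siRNA against ADAR (2 libraries, called library 1 and library 2 here). These 3 libraries were chosen by their labels and are 3 of the 14 libraries of the series. The other 11 hold the same siRNA design in BT-549 breast, NCI-H1395 lung and AGS gastric cancer cells (3 libraries each), and 2 MDA-MB-231 libraries with the vector PCDH or with NOP14 overexpressed. The PCDH and NOP14 libraries served as controls in no test. The siRNA sequences, their dose and the time to harvest are not given in the sources used here. Nor is it given whether libraries 1 and 2 are repeats of 1 siRNA or 2 different siRNAs, or whether they come from separate cultures, so p-values measure only the spread between such libraries, which may be technical.

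ADAR encodes ADAR1, an enzyme that converts adenosine to inosine in double-stranded RNA. Editing by its interferon-inducible form keeps the cell's own double-stranded RNA from being read as viral by sensors such as MDA5 (IFIH1) and PKR (EIF2AK2). When those sensors are engaged, they are known to induce interferon, NF-kappaB target genes and a halt of translation. ADARB1 encodes the other catalytically active editing enzyme of most tissues.

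The counts assigned to genes totalled 19140293 in the control library, 13338338 in library 1, the lowest of the series, and 16480932 in library 2, against a highest total of 27828376. The levels below are counts relative to the library's assigned reads (CPM), scaled between libraries with TMM factors. All 3 MDA-MB-231 siRNA libraries stood apart from the other 11, since they held RNAs that lack poly(A) tails, although the labels state poly(A) capture for every library. RN7SL1, the RNA of the signal recognition particle, was at 19904 to 25541 CPM in these 3 and at 2.25 to 58.7 CPM in the others. The summed level of 68 histone genes was 5229 to 9566 CPM against 27.9 to 583 CPM. The line's usual markers VIM, CD44, AXL, MSN, CAV1, LGALS1 and S100A4 were at 75.0 to 1920 CPM. CDKN2A and CDKN2B, which this line is known to lack, had 0 reads in all 3 libraries, and ESR1, PGR and CDH1 did not pass 0.746 CPM. ERBB3, listed with these as low or absent, was higher, at 5.03, 6.38 and 5.04 CPM in the control library, library 1 and library 2. Among markers of the other lines, COL1A2, COL3A1 and POSTN of BT-549 were at no more than 0.407 CPM. The lung markers NKX2-1, SFTPB and NAPSA were at no more than 0.747 CPM. They were at 0.110, 0 and 0.0548 CPM in the NCI-H1395 control library, so they cannot tell these lines apart. Of 5 gastric and epithelial markers, which summed to 16.2, 9.10 and 9.51 CPM in the control library, library 1 and library 2, EPCAM reached 12.6 CPM in the control library against 395 CPM in AGS, and TFF1 2.84 CPM against 2.35 CPM. The endothelial gene PECAM1 stood at 6.02, 21.7 and 22.01 CPM in the control library, library 1 and library 2, while CDH5 and VWF did not pass 0.272 CPM and CD3E had 0 reads.

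ADAR itself fell in both knockdown libraries. It stood at 305 CPM in the control library, 97.2 in library 1 and 103 in library 2, that is 31.8% and 33.9% of the control. The fitted log2 fold change was -1.60 ± 0.26 (SE), with an adjusted p of 0.00663 in edgeR's quasi-likelihood test over 23959 genes. Both knockdown libraries lay below the 1 control library, and library 1 was 3.14-fold lower (95% counting interval 2.96 to 3.33) by read counts alone. In the other lines ADAR went from 811 to 104 and 93.6 CPM in BT-549, from 402 to 43.6 and 46.8 CPM in NCI-H1395 and from 759 to 131 and 177 CPM in AGS. The change in MDA-MB-231 differed from their mean by 1.22 ± 0.32 on the log2 scale, which did not pass the test (adjusted p = 0.391). The control level of MDA-MB-231 was the lowest of the 4 lines. In bulk RNA, fewer cells with a transcript and less of it per cell cannot be told apart, here and for every gene below. ADARB1 was at 31.8 CPM in the control library, 37.1 in library 1 and 37.3 in library 2 (adjusted p = 1). NOP14, a factor of small ribosomal subunit assembly that the series overexpressed in this line, was at 343 CPM in the control library, 268 in library 1 and 317 in library 2 (adjusted p = 1).

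Across the 23959 genes tested, 18 (0.0751%) changed with ADAR siRNA at an adjusted p under 0.05. Of these, 3 (0.0125%) rose and 15 (0.0626%) fell. By their known roles, those described that fell besides ADAR are genes of the cytoskeleton and cell adhesion, genes of signalling, a zinc finger gene, a respiratory chain subunit and a pair of cancer-testis antigens. At an unadjusted p under 0.05 there were 1161 genes (4.85%), with 502 higher (2.1%) and 659 lower (2.75%). The fit takes its spread from the differences between libraries 1 and 2 of all 4 lines, because MDA-MB-231 has a single control library. Over 11683 genes, the SD of the log2 difference between libraries 2 and 1 was 0.311 in MDA-MB-231. It was wider in BT-549, NCI-H1395 and AGS, at 0.511, 0.517 and 0.580, and that spread enters each test of MDA-MB-231. With the 3 MDA-MB-231 libraries alone, 1205 of 18859 genes (6.39%) passed, 588 higher (3.12%) and 617 lower (3.27%), with 1 residual degree of freedom, and all 18 were among them. Without library 1 only 4 genes passed, among them PLEKHA7, GDF15 and PLCB1, and without library 2 only 2, among them PLEKHA7. Of the 18, 17 are described by name.

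Several calls were lost under other settings or with DESeq2, all with their direction kept. Among genes with a mean of at least 1 CPM, SERINC2 (adjusted p = 0.0748), KALRN (0.0538), ZNF300 (0.195), THBS2 (0.126), MAGEC1 (0.0641) and MAGEC2 (0.134) did not pass, and CNKSR2 and COX7B2 were below that level. ZNF300 was also lost with median-ratio scaling (0.0583), and SERINC2, ZNF300, THBS2 and MAGEC2 with library totals (0.0781, 0.0964, 0.0647 and 0.0781). SERINC2 (0.126) and MAGEC2 (0.0715) were lost with neighbourhood offsets, which set each gene against its 100 nearest expressed genes. MAGEC1 was lost with DESeq2 (0.110), THY1 without BT-549 (0.160), COX7B2 without NCI-H1395 (0.0920) and KALRN without AGS (0.0953).

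The adhesion, matrix and cytoskeleton genes that fell were PLEKHA7, TNS4, DMD, THBS2 and THY1. PLEKHA7, a protein of epithelial adherens junctions (ENSG00000166689.18, hg38 11:16777297-17014415), stood at 78.6 CPM in the control library, 9.71 in library 1 and 11.3 in library 2. That was 8.09-fold lower (95% counting interval 6.81 to 9.67) in library 1 and 6.94-fold lower (95% counting interval 5.94 to 8.14) in library 2, with a fitted log2 fold change of -2.89 ± 0.30 and an adjusted p of 2.88e-05. TNS4, a tensin that binds integrin tails at focal adhesions, stood at 115 CPM in the control library, 27.03 in library 1 and 25.2 in library 2 (log2 fold change -2.13 ± 0.26, adjusted p = 5.66e-04). DMD, which encodes dystrophin, a link between actin and the membrane, had 75, 1 and 0 reads, and its fitted log2 fold change was -6.70 ± 0.90. Library 2 had no DMD read, a level at least 21.99-fold lower than the control when set to a floor of 3 counts per library. THBS2, a matrix glycoprotein that limits angiogenesis, had 140, 0 and 9 reads (-4.69 ± 0.81, adjusted p = 0.0279). Library 1 held no THBS2 read at all while library 2 kept a few, so the size of this fall rests on which library is read. THY1, a surface glycoprotein of mesenchymal cells, had 51, 2 and 2 reads (-4.35 ± 0.56, adjusted p = 7.47e-04).

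The signalling and membrane genes that fell included PLCB1, KALRN, CNKSR2 and SERINC2. PLCB1, a phospholipase C downstream of G-protein-coupled receptors, stood at 7.82 CPM in the control library, 1.15 in library 1 and 0.560 in library 2 (log2 fold change -3.18 ± 0.43, adjusted p = 8.82e-04). KALRN, a guanine nucleotide exchange factor for small GTPases, stood at 5.47 CPM in the control library, 0.679 in library 1 and 0.684 in library 2 (-2.98 ± 0.50, adjusted p = 0.00931). Both knockdown libraries lay far below the control for PLCB1 and for KALRN. CNKSR2, a scaffold of Ras signalling, had 53, 0 and 0 reads, which is at least 14.2-fold lower in library 1 and at least 15.5-fold lower in library 2 at the floor of 3 counts. SERINC2, a serine incorporator of the membrane, stood at 51.1 CPM in the control library, 15.7 in library 1 and 18.2 in library 2 (-1.59 ± 0.29, adjusted p = 0.0270).

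The remaining falls were in a zinc finger gene, a respiratory chain subunit and the cancer-testis antigens, genes whose normal expression is mostly limited to the testis. ZNF300, a KRAB zinc finger gene, had 52, 6 and 7 reads (-2.73 ± 0.53, adjusted p = 0.0482). COX7B2, a testis form of a cytochrome c oxidase subunit, had 43, 0 and 0 reads, which is at least 11.5-fold lower and at least 12.6-fold lower. MAGEC1 stood at 13.2 CPM in the control library, 0.679 in library 1 and 0.622 in library 2 (-4.32 ± 0.69, adjusted p = 0.00918), and its neighbour on the X chromosome, MAGEC2, had 58, 0 and 1 reads (-6.33 ± 1.16, adjusted p = 0.0312). The neighbourhood used for that pair is a stretch of about 100 expressed genes at the end of the X chromosome. It lay at a median log2 ratio of -0.41 and -0.20 in libraries 1 and 2, beside -0.091 and -0.0040 over all genes at 1 CPM.

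The 3 genes that rose were a stress-induced cytokine, a receptor subunit and C14orf132, of which no role is given here. GDF15, a secreted member of the TGF-beta superfamily that is induced by many cell stresses, stood at 3.45 CPM in the control library, 25.5 in library 1 and 37.8 in library 2, with a log2 fold change of 3.20 ± 0.41 and an adjusted p of 0.00112. By read counts it was 7.39-fold higher (95% counting interval 5.65 to 9.81) in library 1 and 10.97-fold higher (95% counting interval 8.45 to 14.5) in library 2. GABRA3, a subunit of the GABA-A receptor, had 2, 62 and 67 reads (5.18 ± 0.86, adjusted p = 0.00931). Library 1 was 38.5-fold higher (95% counting interval 10.2 to 325). The neighbourhood used for GABRA3 is the same stretch at the end of the X chromosome, with medians of -0.41 and -0.20. C14orf132 had no read in the control library and 64 and 88 reads in libraries 1 and 2, which is at least 26.5-fold higher and at least 33.3-fold higher at the floor of 3 counts (adjusted p = 0.00229).

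**Figure D1:**
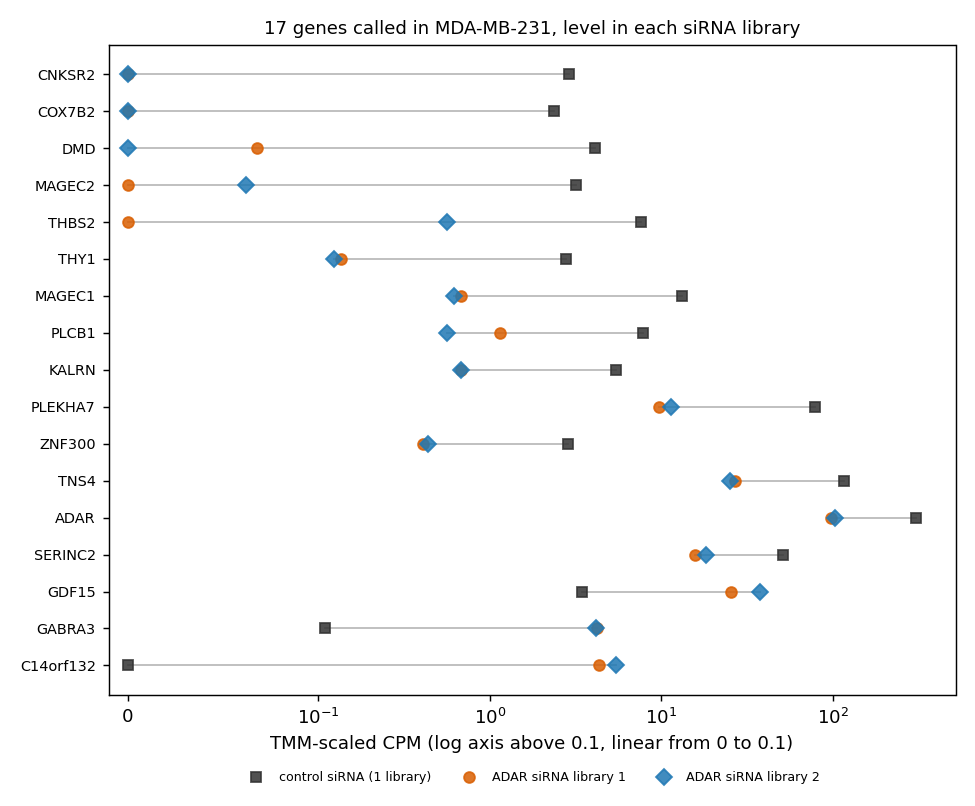
Level of 17 of the 18 called genes in each MDA-MB-231 siRNA library, in TMM-scaled CPM on an axis that is linear from 0 to 0.1 and logarithmic above. Squares are the control library, circles ADAR siRNA library 1 and diamonds library 2, and a grey line spans each gene. Where a circle cannot be seen it lies under the diamond. In every gene both ADAR siRNA libraries lie on the same side of the control, which is no separate result, since the genes were called on these libraries.

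The PCDH and NOP14 libraries of the same line give the level of these genes without siRNA, with all 14 libraries scaled together. Of the 14 genes described that fell, 6 were above the siRNA control in both vector libraries, 7 below it in both, and MAGEC2 above it in 1. Among the former, THBS2 was at 27.1 and 21.9 CPM against 7.84, MAGEC1 at 18.8 and 18.1 CPM against 13.5, DMD at 10.03 and 11.2 CPM against 4.20, SERINC2 at 66.5 and 71.9 CPM against 52.3 and ADAR at 346 and 327 CPM against 313. Among the latter, TNS4 was at 43.6 and 35.4 CPM against 118 and THY1 at 0.980 and 0.667 CPM against 2.86. GDF15 in the vector libraries, at 15.6 and 18.2 CPM against 3.53, lay between the siRNA control and the knockdown libraries. The vector libraries carry RN7SL1 at only 5.29 and 3.84 CPM, so vector and library type cannot be told apart in these values.

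**Figure D2:**
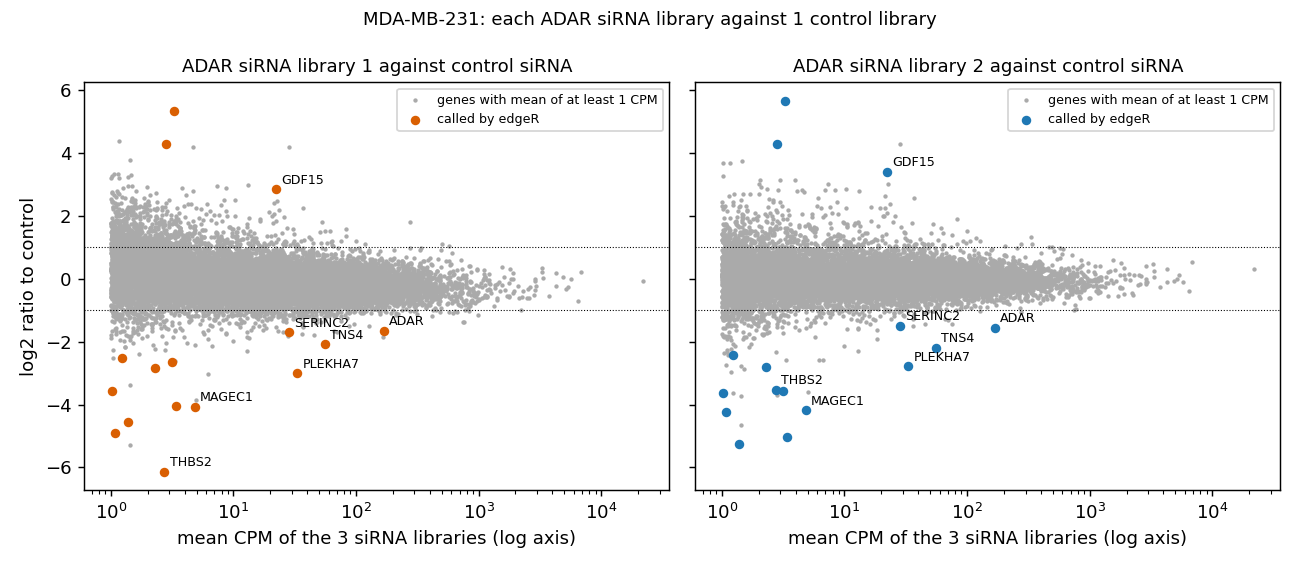
Log2 ratio of each ADAR siRNA library to the control library against the mean CPM of the 3 libraries (log axis), for genes with a mean of at least 1 CPM. Colored points are genes called by edgeR, dotted lines mark 2-fold, and the grey cloud of library 1 is wider and higher than that of library 2 at 1 to 5 CPM.

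Taken singly, the ADAR siRNA libraries differed in how many genes moved. Of 14999 genes with a mean of at least 1 CPM, 938 (6.25%) were past 2-fold above the control in library 1 and 462 (3.08%) past 2-fold below it. In library 2 the numbers were 532 (3.55%) and 292 (1.95%). Both ratios use the same control library, so their likeness is no result. Set against library 1, library 2 had 99 genes (0.66%) past 2-fold above and 547 (3.65%) past 2-fold below. By level, between 1 and 2 CPM, 22.5% of genes were past 2-fold above the control in library 1 and 10.2% in library 2, while from 100 CPM upward the shares were 0.178% and 0.401%. The median log2 ratio also fell with level, in library 1 from 0.35 between 1 and 2 CPM to -0.23 from 100 CPM upward. In library 2 it went from 0.060 to -0.049. Antisense RNAs had a median log2 ratio of 0.29 in library 1 and 0.028 in library 2, and sense intronic RNAs 0.61 and 0.086. Protein-coding genes also shifted with their length in library 1, from a median of -0.34 in the shortest of 4 length classes to 0.031 in the longest, and in library 2 only from -0.044 to 0.036. The part of these trends in the results below was not tested, so medians with each gene set against genes of like length are given below for the lists where they turn a printed median or move it by over 1.5 times, and for 3 further lists. With library totals in place of TMM factors, the median fitted change of the genes at 1 CPM moved from -0.027 to 0.085, and list medians in library 1 moved up with it.

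Among the 9505 genes with a mean of at least 10 CPM, 5 were called, and the 15 genes farthest below and the 15 farthest above the control by the smaller of the 2 libraries' ratios are described here. Beside PLEKHA7, TNS4, ADAR and SERINC2, the lower genes were led by MISP, an actin-bundling protein of the mitotic spindle, at 27.5, 5.57 and 5.47 CPM in control, library 1 and library 2 (adjusted p = 0.0677). PLAU, the urokinase that activates plasminogen at the cell surface, was at 310.4, 85.9 and 105 CPM (adjusted p = 1). AREG, a ligand of the EGF receptor, was at 66.5, 19.7 and 23.5 CPM (adjusted p = 0.409). The control library was the highest for each gene, but none passed the test. EFEMP1, a fibulin of the matrix, was at 81.8, 23.8 and 29.97 CPM, and SLC25A25, a mitochondrial carrier on chromosome 9, at 25.8, 9.64 and 9.89 CPM (adjusted p = 0.0997), where its 100 nearest expressed genes lay at -0.75 and -0.54. ATP9B, ZNF114, TTLL11, MATN2, PDE1C and PPP1R3F made up the rest, with ratios of -1.35 to -1.93.

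Among these genes at 10 CPM or more, the largest ratio above the control belonged to C3, the central component of complement, at 2.08, 40.1 and 42.4 CPM (log2 fold change 4.31 ± 0.91, adjusted p = 0.233). In the vector libraries C3 was at 150.2 and 145 CPM against 2.13 in the siRNA control. IL24, a cytokine of the IL-10 family, was at 4.54, 25.7 and 37.7 CPM (adjusted p = 0.0750), and PTGS2, the inducible cyclooxygenase COX-2, at 5.03, 27.03 and 31.9 CPM (adjusted p = 0.217). PIK3CG, a catalytic subunit of PI3-kinase typical of leukocytes, was at 2.13, 12.7 and 16.3 CPM (adjusted p = 0.0997). Each of these had both knockdown libraries at 5 times the control or more, and none passed the test. PIEZO2, a mechanosensitive channel, was at 2.41, 19.7 and 17.5 CPM, LCP1, the leukocyte plastin, at 9.35, 45.1 and 55.7 CPM, and APOBEC3G, a cytidine deaminase that restricts retroviruses, at 6.51, 29.9 and 34.4 CPM (adjusted p = 0.505). The histone gene H2BC1 was at 6.40, 27.03 and 31.1 CPM, with 0 reads in all 9 libraries of the other lines, and is 1 of the histone genes that stood high in these 3 libraries. TSPOAP1, ANXA10, PTGFRN, TCP11L2, KRT86 and S1PR3 completed the group, at ratios of 1.83 to 2.30.

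NF-kappaB is held in the cytoplasm by IkappaB proteins such as NFKBIA, and once freed it induces cytokines, chemokines and its own inhibitors. The 22 genes listed for NF-kappaB feedback and inflammation had 21 members at 1 CPM or more. In library 1, 16 of these lay above the control, with a median log2 ratio of 0.48, and in library 2, 20 did, with a median of 0.89. Over all 14999 genes the medians were -0.091 and -0.0040. Past 2-fold above the control were 7 and 8 members (6.25% and 3.55% of all genes), and none was past 2-fold below (3.08% and 1.95%). No member was called (0.0125% of all genes were called higher), and 10 had an unadjusted p under 0.05, all on the higher side. That side held 2.1% of all genes. With the 3 libraries alone 13 members passed, all higher (3.12% of all genes), and with DESeq2 1 did (0.147% of 15598 genes with an adjusted p). In the vector libraries PTGS2 was at 30.5 and 30.6 CPM against 5.15 in the siRNA control.

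Among the secreted members, IL1A stood at 1.42, 7.81 and 8.95 CPM in control, library 1 and library 2, and IL1B, the other interleukin-1, at 1.64, 6.99 and 12.3 CPM. CSF3, the growth factor of granulocytes, was at 2.30, 10.7 and 12.9 CPM (adjusted p = 0.273), and IL6 at 5.96, 16.3 and 17.5 CPM (adjusted p = 0.902). In each of these the knockdown libraries were above the control, and library 2 above library 1. Among the feedback inhibitors, TNFAIP3, the deubiquitinase A20, was at 19.7, 41.02 and 40.9 CPM (adjusted p = 0.506), BIRC3 at 59.7, 118 and 137 CPM and NFKBIA at 103, 143 and 181 CPM (log2 fold change 0.66 ± 0.28, adjusted p = 0.896). SOD2, the mitochondrial superoxide dismutase, was at 62.7, 136 and 156 CPM (adjusted p = 0.217). Of the subunits of NF-kappaB itself, NFKB1 was at 80.5, 80.5 and 90.9 CPM, NFKB2 at 88.3, 100.4 and 121 CPM and RELB at 26.4, 43.5 and 50.7 CPM, so that RELB lay above the control in both libraries by more than the other two. IL11 was the member below the control in both libraries, at 37.9, 23.7 and 30.9 CPM.

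Of 15 listed CXC and CC chemokines and CX3CL1, which draw leukocytes to tissue, 5 reached 1 CPM. All 5 lay above the control in both libraries, at medians of 1.36 in library 1 and 1.65 in library 2. In each, 4 were past 2-fold above (6.25% and 3.55% of all genes). CXCL1 was at 8.26, 21.4 and 26.5 CPM (log2 fold change 1.54 ± 0.42, adjusted p = 0.342), CXCL2 at 3.83, 11.8 and 13.6 CPM (adjusted p = 0.177) and CXCL3 at 2.46, 7.40 and 7.84 CPM. CXCL8, the neutrophil chemokine IL-8, was at 14.004, 29.4 and 44.2 CPM. None was called by edgeR, with 3 of the 13 tested higher (2.1% of all genes) and 1 lower (2.75%) at an unadjusted p under 0.05, while DESeq2 called 2 (0.147% of all genes) and the fit of the 3 libraries alone 4 (3.12%), all higher. CXCL1, CXCL2 and CXCL3 are close copies of each other, so reads may have been split or lost between them.

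**Figure D3:**
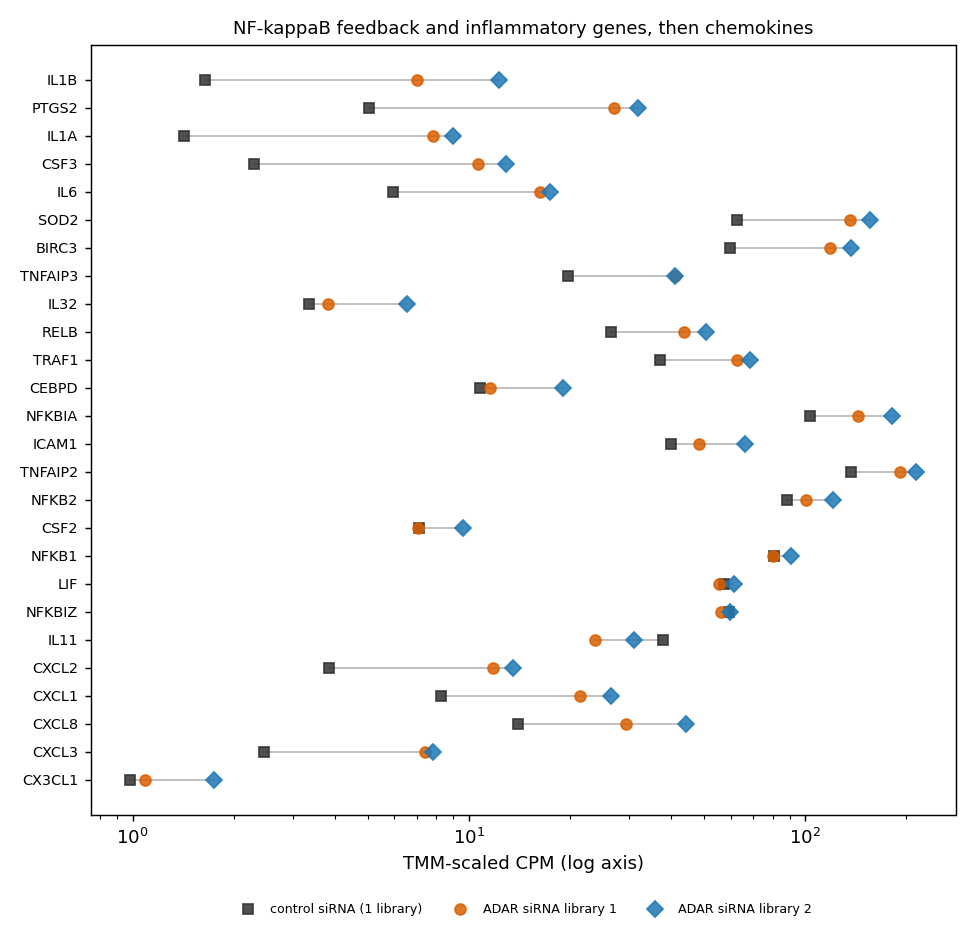
Level in TMM-scaled CPM (log axis) of 21 NF-kappaB feedback and inflammatory genes and, below them, 5 chemokines in the control library (squares), ADAR siRNA library 1 (circles) and library 2 (diamonds). Most members lie to the right of the control in both ADAR siRNA libraries, and IL11 lies to its left.

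The promoters of these chemokines and feedback genes carry letters like the site that NF-kappaB binds, and the 150 bases before the start site are shown for 5 of them whose levels are given above. Capitals mark each match to GGGNNTTTCC, searched on both strands, in the RefSeq promoter table of build GRCh38.p14. The motif was chosen after the values were seen, and was 1 of several spellings looked at.
CXCL1, chr4:73869243-73869392, plus strand: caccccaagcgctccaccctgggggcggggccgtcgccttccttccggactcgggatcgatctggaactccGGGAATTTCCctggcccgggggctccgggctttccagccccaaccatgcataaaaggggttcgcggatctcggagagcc
CXCL2, chr4:74099196-74099345, minus strand: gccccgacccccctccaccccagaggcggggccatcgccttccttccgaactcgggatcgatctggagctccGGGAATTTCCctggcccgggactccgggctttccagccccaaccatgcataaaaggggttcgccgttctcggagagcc
CXCL3, chr4:74038690-74038839, minus strand: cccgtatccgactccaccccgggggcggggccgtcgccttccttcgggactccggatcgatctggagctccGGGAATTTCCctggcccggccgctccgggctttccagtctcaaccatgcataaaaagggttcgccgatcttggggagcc
NFKBIA, chr14:35404750-35404899, minus strand: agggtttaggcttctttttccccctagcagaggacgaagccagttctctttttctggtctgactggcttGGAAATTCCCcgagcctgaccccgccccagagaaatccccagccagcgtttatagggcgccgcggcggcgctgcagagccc
TNFAIP3, chr6:137867109-137867258, plus strand: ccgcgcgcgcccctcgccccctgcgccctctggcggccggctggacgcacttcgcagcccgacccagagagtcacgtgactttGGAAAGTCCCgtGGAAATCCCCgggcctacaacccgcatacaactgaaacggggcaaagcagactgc
The 3 CXCL promoters share the same 10 letters, which end 69 or 70 bases before the start site. NFKBIA holds 1 match on the opposite strand, ending 72 bases before the start, and TNFAIP3 holds 2, the farther of which ends 58 bases before it. Over windows from 250 bases before to 50 after the start, 671 of 35116 promoters (1.91%) held a match. Of the NF-kappaB list, 17 members had a promoter in the table and 7 of these (41.2%) held one, namely NFKBIA, NFKBIZ, NFKB1, TNFAIP3, BIRC3, IL6 and IL32. Of 4 chemokines in the table, CXCL8 alone held none. The 1.91% counts every promoter, while for listed genes only the first promoter of each was searched. The genes were listed for their known tie to NF-kappaB and inflammation, so these shares test nothing in these data. A match describes letters only, and NFKB1 and NFKBIZ, which hold one, were near the control level.

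The double-stranded RNA sensors and the genes that interferon induces had small medians, with a few members past 2-fold. Of 15 sensors and adaptors at 1 CPM, 10 were above the control in each library. Their medians were 0.20 in library 1 and 0.16 in library 2, beside -0.091 and -0.0040 over all genes. Past 2-fold above was 1 member in each library (6.25% and 3.55% of all genes), and 0 were past 2-fold below. None was called by edgeR or DESeq2 and 0 had an unadjusted p under 0.05, while the 3 libraries alone gave 2 calls, both higher, where 3.12% of all genes were. IFIH1, the sensor MDA5, was at 9.46, 15.01 and 14.8 CPM and RIGI at 6.45, 12.9 and 6.59 CPM, with library 2 close to the control. EIF2AK2, the kinase PKR, was at 150.2, 145 and 144 CPM. NLRP1 was at 47.5, 70.1 and 63.7 CPM and IKBKE, a kinase of the same pathway, at 27.6, 40.3 and 45.9 CPM. None of the 7 listed interferon ligand genes reached 1 CPM.

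Of 36 interferon-stimulated genes at 1 CPM, 14 lay above the control in library 1 and 22 in library 2, at medians of -0.061 in library 1 and 0.22 in library 2. Past 2-fold above were 3 and 4 of these (6.25% and 3.55% of all genes), and 1 was past 2-fold below in each (3.08% and 1.95%). Of all 38 listed, none was called by edgeR, with 2 higher (2.1% of all genes) and 1 lower (2.75%) at an unadjusted p under 0.05. DESeq2 called 1 higher (0.147% of all genes) and the 3 libraries alone gave 5 higher (3.12%) and 2 lower (3.27%). The median of library 1 turns positive with median-ratio scaling (0.0100), with library totals (0.15), with neighbourhoods centred (0.081) and with length taken out (0.072). The members with the smallest p were MX2, an antiviral GTPase, at 1.91, 6.65 and 7.84 CPM (adjusted p = 0.118), and GBP2, a guanylate-binding protein, at 31.5, 72.9 and 87.4 CPM (adjusted p = 0.471). OAS1, OAS2 and OAS3, which sense double-stranded RNA and make 2-5A, were at 3.77, 1.97 and 3.23 CPM, 33.9, 25.8 and 31.9 CPM and 59.8, 61.7 and 66.9 CPM. The 14 MHC class I presentation genes had medians of -0.18 in library 1 and 0.24 in library 2, with 5 and 13 above the control, and that of library 1 turns positive with library totals (0.029) and with neighbourhoods centred (0.20) and is at -0.037 with length taken out. HLA-F, a non-classical class I gene, was at 0.985, 2.44 and 4.29 CPM (adjusted p = 0.692), and ERAP1, which trims peptides, at 55.9, 86.2 and 89.7 CPM. Among 16 RNA editing and double-stranded RNA-binding genes at 1 CPM, ADAR, the siRNA target, was alone past 2-fold. It was below the control in both libraries, where 3.08% and 1.95% of all genes were past 2-fold below. Of the 17 tested, ADAR alone was called (0.0626% of all genes were called lower). ILF2 was at 230.4, 147 and 192 CPM and ZFR at 331, 379 and 439 CPM.

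DNA replication genes lay below the control as a group. Of 35 listed genes for replication and nucleotide synthesis, 35 were below the control in library 1 and 34 in library 2, at medians of -0.67 in library 1 and -0.41 in library 2. None was called by edgeR (0.0626% of all genes were called lower) or DESeq2, and the 3 libraries alone gave 11, all lower (3.27% of all genes). By edgeR 12 had an unadjusted p under 0.05 on the lower side, where 2.75% of all genes did. Past 2-fold below were 3 in library 1 (3.08% of all genes) and 0 in library 2 (1.95%). With length taken out the medians were -0.52 and -0.39. GINS2, a subunit of the replicative helicase, was at 29.6, 11.9 and 15.1 CPM (log2 fold change -1.12 ± 0.31, adjusted p = 0.319). ORC1, of the origin recognition complex, was at 32.7, 17.2 and 16.5 CPM and MCM7, of the helicase ring, at 308, 140.2 and 187 CPM, while its nearest genes on chromosome 7 lay at -0.38 and -0.22. PCNA, the polymerase clamp, was at 174, 114 and 144 CPM, and the polymerase subunit POLA1 at 73.7, 73.1 and 67.3 CPM.

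Genes for mitosis, recombination and histones also had medians below the control. Of 24 mitosis genes, 23 and 18 were below it, at -0.44 in library 1 and -0.21 in library 2, or -0.30 and -0.20 with length taken out, with CDC20, the activator of the anaphase-promoting complex, at 250.3, 119.7 and 158 CPM (adjusted p = 0.394) and BIRC5, survivin, at 209.7, 117 and 149.995 CPM. Of 21 homologous recombination and Fanconi genes, 18 were below it in each library, at -0.34 in library 1 and -0.28 in library 2, with FANCE at 41.2, 22.002 and 21.1 CPM and RAD54L at 22.5, 13.8 and 10.9 CPM. All 14 listed replication-dependent histone genes at 1 CPM were below it, at -0.90 in library 1 and -0.36 in library 2, and with neighbourhoods centred at -0.47 and -0.21. Over all 68 histone genes, 38 reached 1 CPM, of which 36 and 34 were below the control, while H2BC1 and H2AC1, which are not in the list, lay above it in both libraries. H2BC12 was at 593, 262 and 389 CPM (adjusted p = 0.471). Histone transcripts mostly lack poly(A) tails and stood high in these 3 libraries only. The 68 histone genes summed to 9566, 5229 and 7456 CPM, and the part of untailed RNA in the ratios of this list was not tested.

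The parts of the ribosome and of its assembly lay below the control, more in library 1. Of 76 cytosolic ribosomal protein genes, 74 were below it in library 1 and 70 in library 2, at medians of -0.67 in library 1 and -0.23 in library 2, or -0.46 and -0.22 with each gene set against genes of like length. All genes from 100 CPM upward had medians of -0.23 in library 1 and -0.049 in library 2, and those from 30 to 100 CPM -0.18 and -0.025. Many of the ribosomal protein genes have processed pseudogenes that can share their reads. No member was called by edgeR, DESeq2 called 1 (0.141% of all genes lower) and the 3 libraries alone 12 (3.27%), all lower. In single libraries 5 were past 2-fold below in library 1 (3.08% of all genes) and 0 in library 2 (1.95%), and 20 had an unadjusted p under 0.05 on the lower side (2.75%). The 3 with the smallest p all lie on chromosome 9. RPL7A was at 1182, 455 and 594 CPM (log2 fold change -1.17 ± 0.25, adjusted p = 0.0997), with ratios of -1.38 and -0.99 while its nearest expressed genes were at -0.98 and -0.73. RPL35 was at 1408, 631 and 914 CPM and RPS6, the subunit that S6 kinase phosphorylates, at 882, 436 and 592 CPM. Of 39 genes of the small-subunit processome, the assembly to which NOP14 belongs, 35 and 30 were below the control, at -0.46 in library 1 and -0.18 in library 2. NOL6 was at 114, 62.2 and 66.4 CPM (adjusted p = 0.657) and UTP14A at 118, 65.2 and 81.9 CPM.

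Stress pathways gave a mixed picture. The integrated stress response, in which kinases such as PKR phosphorylate eIF2 and ATF4 is translated, held the called gene GDF15. It was the 1 call among 26 genes tested, and 0.0125% of all genes were called higher. The list was drawn up with earlier results of these data known, so this share tests nothing. The medians of its 25 genes at 1 CPM were -0.015 in library 1 and 0.28 in library 2. That of library 1 turns positive with median-ratio scaling (0.056), library totals (0.19), neighbourhoods centred (0.0998) and length taken out (0.12). CEBPB, a transcription factor of this and of inflammatory responses, was at 54.1, 99.8 and 125 CPM (adjusted p = 0.334), and DDIT4, an inhibitor of mTORC1, at 49.2, 74.2 and 99.8 CPM (adjusted p = 0.598). ATF4 itself was at 363, 242 and 328 CPM, DDIT3, the factor CHOP, at 22.3, 29.1 and 41.04 CPM, and the asparagine synthetase ASNS at 1.53, 1.63 and 2.43 CPM. The 20 aminoacyl-tRNA synthetase genes, many of them ATF4 targets, were at -0.25 in library 1 and 0.057 in library 2, or -0.22 and 0.036 with length taken out, with NARS1 at 203, 104 and 127 CPM.

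Endoplasmic reticulum chaperones were above the control for 11 of 18 genes in library 1 and for 18 in library 2, at 0.13 in library 1 and 0.36 in library 2, or 0.19 and 0.36 with length taken out. HERPUD1, of the degradation machinery there, was at 31.2, 53.5 and 62.9 CPM and DNAJC3 at 80.8, 109.6 and 129 CPM. Heat shock chaperones were below it for 12 and 11 of 13 genes, at -0.49 in library 1 and -0.19 in library 2, or -0.26 and -0.21 with length taken out, with BAG3 at 252, 165 and 196 CPM. Hypoxia and glycolysis genes were at 0.11 in library 1 and 0.38 in library 2, or 0.24 and 0.37 with length taken out, with VEGFA, the vascular growth factor, at 386, 681 and 739 CPM (adjusted p = 0.586) and EGLN3, an oxygen sensor, at 6.24, 12.7 and 14.2 CPM. The 19 p53 target genes were at 0.077 in library 1 and 0.12 in library 2, or 0.13 and 0.10 with length taken out, with TP53INP1 at 7.17, 19.8 and 16.9 CPM (adjusted p = 0.342) and AEN at 35.1, 21.3 and 24.5 CPM. In the BCL2 family, BMF, a killer protein that binds BCL2, was at 2.24, 9.44 and 11.3 CPM (adjusted p = 0.222), while PMAIP1 and BCL2, both on chromosome 18 beside genes at -0.48 and -0.42, were at 124, 59.4 and 72.3 CPM and 12.8, 6.99 and 7.15 CPM. Apart from GDF15, no gene of these lists was called.

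Metabolic genes showed small medians. The 13 genes of the mitochondrial genome were at 0.21 in library 1 and 0.31 in library 2, with MT-CO1 at 5662, 6565 and 8147 CPM. The 70 nuclear respiratory chain genes were at -0.32 in library 1 and 0.06 in library 2, or -0.17 and 0.10 with length taken out, of opposite sign in the 2 libraries either way, with NDUFA4 at 48.8, 23.97 and 36.9 CPM. The 24 genes of cholesterol synthesis and uptake were at -0.19 in library 1 and 0.16 in library 2, and library 1 was at -0.059 with length taken out and turned positive with library totals (0.014). INSIG1, which retains the SREBP complex, was at 23.2, 40.8 and 46.95 CPM (adjusted p = 0.611) and HMGCS1 at 13.8, 22.95 and 22.8 CPM. NRF2 targets were at -0.23 in library 1 and -0.13 in library 2, or -0.15 and -0.13 with length taken out.

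Genes of cell state and matrix differed among themselves. YAP target genes, which respond to matrix tension, were below the control for 17 of 23 in each library, at -0.41 in library 1 and -0.25 in library 2. CCN1, a matricellular target, was at 829, 508 and 595 CPM, FJX1 at 53.8, 23.8 and 33.8 CPM (adjusted p = 0.505) and NUAK2 on the other side at 6.02, 11.9 and 13.4 CPM. Of 22 mesenchymal and matrix genes, THBS2 alone was called (0.0626% of all genes were called lower). COL6A2, a collagen VI chain, was at 48.2, 111 and 139.7 CPM (adjusted p = 0.939). MMP2, a gelatinase, was at 0.656, 2.85 and 3.61 CPM. EPCAM and CLDN4, epithelial genes, were at 12.6, 5.57 and 6.47 CPM (adjusted p = 0.296) and 33.5, 18.1 and 21.1 CPM. Among immediate early genes, JUNB was at 22.2, 30.6 and 50.9 CPM and FOSL1 at 567, 369 and 426 CPM, and the list was at -0.11 in library 1 and 0.17 in library 2, the former turning positive with library totals (0.10), neighbourhoods centred (0.10) and length taken out (0.026).

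**Figure D4:**
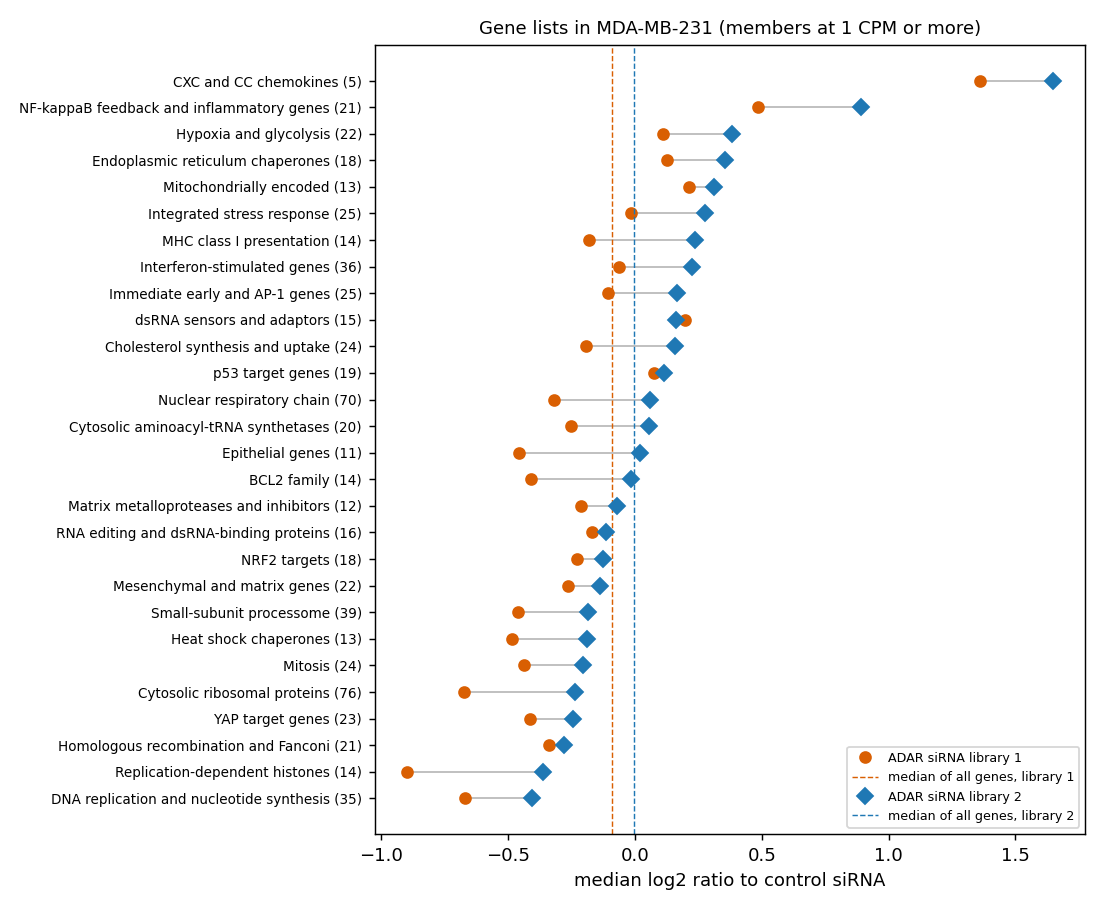
Median log2 ratio to the control library of each gene list with at least 5 members at 1 CPM or more (number in brackets), for ADAR siRNA library 1 (circles) and library 2 (diamonds). Dashed lines are the medians of all 14999 genes, -0.091 in library 1 and -0.0040 in library 2, and the chemokine and NF-kappaB lists lie farthest to the right. Histones lie farthest to the left in library 1 and replication genes in library 2.

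Expression also shifted in long stretches of chromosomes. The 10953 genes with a mean of at least 5 CPM were put in 99 runs of 100 or more neighbours, each set against the median of its library. In library 1, 8 runs lay more than 0.3 above and 2 more than 0.3 below, and in library 2, 4 and 3. No run passed 0.3 in BT-549 or NCI-H1395 or in AGS library 2, while AGS library 1 had 9, all below. The lowest run was the end of the long arm of chromosome 9, hg38 chr9:125747345-137870016, where 145 genes had medians of -0.78 and -0.69, against 0.036 and 0.028 in BT-549. There NCI-H1395 stood at 0.094 and 0.038, and AGS at -0.38 and 0.024. The first run of chromosome 7, chr7:192571-29195451, was at -0.34 in both libraries. The highest was the distal long arm of chromosome 6, chr6:106629578-170584692, where 172 genes were at 0.44 and 0.37.

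Over whole chromosomes the same stretches stand out. The 445 expressed genes of chromosome 9 had medians of -0.31 in both libraries, the 511 of chromosome 7 -0.21 and -0.23, and the 161 of chromosome 18 -0.16 and -0.15. The 196 genes of chromosome 13 were at 0.34 and 0.28, the 536 of chromosome 5 at 0.29 and 0.27 and the 324 of chromosome 20 at 0.21 and 0.23. In BT-549 no chromosome passed 0.087 in size, while in library 1 of NCI-H1395 chromosome 19 was at 0.14 and in library 1 of AGS chromosomes 19, 22 and 16 were at -0.32, -0.24 and -0.22. TNFAIP3 and SOD2 lie in the raised stretch of chromosome 6, where their nearest genes were at 0.19 and 0.35, below their own ratios of 1.05 and 1.05 and 1.11 and 1.31. Unlike the medians of runs and chromosomes, values of nearest genes, here and above, are not set against the median of the library. With each gene's neighbourhood taken out of the counts, 16 genes were called, all among the 18.

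**Figure D5:**
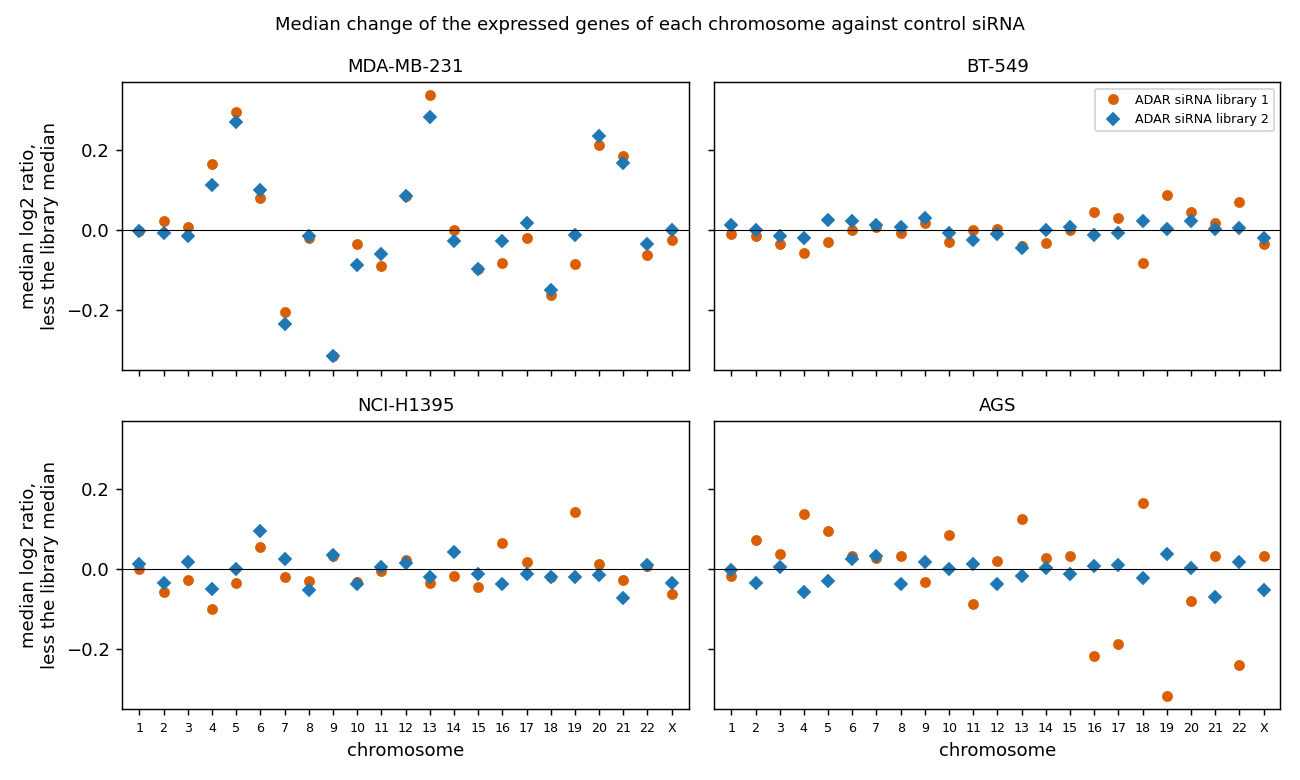
Median log2 ratio to the control library of the expressed genes of each chromosome, less the library's median, in the 4 lines, for ADAR siRNA library 1 (circles) and library 2 (diamonds). In MDA-MB-231, chromosome 9 is lowest at -0.31 in both libraries and chromosome 13 highest at 0.34 and 0.28, while BT-549 stays within 0.087 of 0 and AGS library 1 reaches -0.32 on chromosome 19.

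Whether a change in MDA-MB-231 differed from the mean change of BT-549, NCI-H1395 and AGS was tested as 1 contrast, and 4 of 23959 genes (0.0167%) passed. GDF15 rose here by 3.40 ± 0.45 more on the log2 scale (adjusted p = 0.00459), while it went from 222 to 209 and 153 CPM in BT-549, from 10.2 to 22.7 and 11.8 CPM in NCI-H1395 and from 2678 to 1307 and 1203 CPM in AGS. PLCB1 differed by -3.50 ± 0.48, and its knockdown libraries lay above the control in each other line, at 33.6, 46.7 and 42.5 CPM in AGS. PLEKHA7 differed by -2.56 ± 0.37, with 19.3, 20.5 and 23.1 CPM in BT-549 and 77.2, 64.3 and 78.2 CPM in AGS. In NCI-H1395 PLEKHA7 was also below its control, at 1.26, 0.583 and 0.601 CPM. DMD differed by -7.01 ± 1.02, with 12.6, 16.5 and 36.7 CPM in BT-549 and 1.59, 1.17 and 1.56 CPM in NCI-H1395. SERINC2 did not pass this test. TNS4 had no read in BT-549, so the contrast had no usable estimate for it (-1.27 ± 2262) and could not decide. The same held for CNKSR2, COX7B2 and MAGEC1, each without reads in at least 1 other line (SE 21391, 20696 and 6522). For such genes, not passing does not mean that the lines changed alike. SERINC2 was at 43.0, 15.6 and 17.3 CPM in NCI-H1395, 155, 99.04 and 120 CPM in AGS and 0.308, 0.174 and 0.324 CPM in BT-549. TNS4 was at 2086, 1014 and 1275 CPM in AGS. Next by p came THY1 (-5.84 ± 1.05, adjusted p = 0.0710) and OPN3, an opsin, at 2.30, 0.679 and 0.249 CPM (-4.52 ± 0.90, adjusted p = 0.128). Without library 1, and likewise without library 2, no gene passed this test, with 544 and 705 genes at an unadjusted p under 0.05.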

How the data were processed

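RNA-seq of 14 libraries was deposited as 1 table of whole-number read counts per gene, made by the authors. The submitters' processing notes name hg38, featureCounts 2.0.6, fastp 0.23.4 and STAR 2.7.11a. Strand setting and treatment of reads with several matches are not given in the sources used here. The labels' protocols state poly(A) capture. Of 62702 lines, 3 broken lines were not used, and 58206 of 62699 genes matched GENCODE 29 by identifier, which gave gene classes. Positions are those of the table.

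The count test was edgeR 4.0.16 (R 4.3.3, limma 3.58.1): TMM scaling, filterByExpr, a robust quasi-likelihood fit of the 12 siRNA libraries as 8 groups (4 residual degrees of freedom) and Benjamini-Hochberg adjustment over 23959 genes at 0.05. The lone control is assumed to vary like the pairs of knockdown libraries. The SE printed after ± was derived as the size of the fitted log2 change divided by the square root of the test's F value. Ratios of single libraries have no test and use a prior count of 2. Counting intervals (95%, exact) and floors (3 counts) cover counting error only. The values of a few genes that these rules choose are not reported here. Named were ADAR, ADARB1 and NOP14, the called genes, the 15 largest rises and 15 largest falls at 10 CPM or more by the smaller of the 2 ratios, and the 3 members of each list with the smallest p, with 6 genes for the difference between lines. Other list members named in the text, such as IL1A, IL1B, CXCL8, OAS1 and ATF4, were chosen for their known role after their values were seen. The members and the 30 lists were chosen with earlier results of these data known, and lists are described by counts and medians without a test. Alternatives were DESeq2 1.42.0, other scalings, filters and samples. Tested on simulated data of 22706 genes, the fit recovered 12% of 100 genes changed 2-fold and 66% of 100 changed 4-fold in MDA-MB-231, with 21 unchanged genes called, and for the difference between lines 8% and 51%, with 15 unchanged genes called, so more unchanged genes pass than the threshold states.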

Additional observations from a re-analysis of the deposited data

Results flagged for a closer look

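The change with ADAR siRNA in MDA-MB-231 differed from the mean change of the other 3 lines for 4 genes, by edgeR's test of that contrast. GDF15 was higher by 3.40 on the log2 scale (adjusted p = 0.00459). PLCB1 had a difference of -3.50, PLEKHA7 of -2.56 and DMD of -7.01, with adjusted p of 0.00459, 0.00459 and 0.00464. DMD rests on 75 reads in the control library against 1 and 0 in the knockdown libraries. For each gene both MDA-MB-231 knockdown libraries lay on the same side of their control. The genes were chosen by a test of these libraries against that 1 control, so this is no separate result. None of the 4 passed with library 1 or library 2 left out.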

How the results depend on the processing

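The 18 calls in MDA-MB-231 became 17 with median-ratio scaling, 14 with library totals and 16 with neighbourhood offsets. They became 107 without the count filter, 10 with a mean of at least 1 CPM, 45 with DESeq2, 1205 with the 3 libraries alone, and 64, 56 and 45 leaving out BT-549, NCI-H1395 and AGS. Leaving out a knockdown library gave 2 to 4 calls. The 4 calls for the difference between lines became 31 with DESeq2 and 13, 25 and 26 leaving out those lines in the same order, and 0 without either knockdown library. None of the 18 calls changed sign under these. The library number as a replicate block gave 187 calls, and 107 for the difference, but the numbers do not pair MDA-MB-231 with the other lines: its library 2 minus library 1 values correlated at -0.084, -0.076 and 0.060 across genes with those of BT-549, NCI-H1395 and AGS. Those 3 lines correlated among themselves, BT-549 with NCI-H1395 at 0.446, BT-549 with AGS at 0.190 and NCI-H1395 with AGS at 0.217. Of the counts past 2-fold in single libraries, higher in library 1, 938 genes became 1412 with library totals, 200 at 5 CPM and 446 in protein-coding genes (added after seeing the data); lower in library 1, 462 became 218 with library totals, 263 at 5 CPM, 197 with neighbourhoods centred and 305 with length taken out (added likewise). In library 2, 532 higher became 179 at 5 CPM, and 292 lower became 80 at 5 CPM and 182 in protein-coding genes. Runs past the shift in library 1, 10 of 99, became 25 of 206 with 50 genes a run and 18 of 140 at 1 CPM. In library 2 they were 7, 19 and 11. Of 56 list medians, 2 changed sign with median-ratio scaling, 7 with library totals, 6 with neighbourhoods centred and 3 with length taken out. The causes were not tested. Genes with few reads, such as CNKSR2, COX7B2 and MAGEC2, are limited by depth to a lower bound of their fold.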
